A study of Mus musculus with 18 samples.

Results

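The cytotoxic granule genes described here are 9 genes of killer lymphocytes, read from the rows of the deposited gene tables that carry their symbols: Gzma, Gzmb, Gzmk, Prf1, Nkg7, Klrd1, Klrk1, Fasl and Eomes. The symbols were listed by name, without a threshold on any value but with earlier results of these data known. All 9 were found among the 16321 genes of the table. RNA came from pieces of distal colon of BALB/c mice and was sequenced as polyadenylated RNA. The wild type was sampled at 6 weeks of age (WT W6), and mice of the same strain without interleukin 10 (Il10KO), which develop spontaneous colitis, were sampled at 6, 8, 10, 12 and 14 weeks (Il10KO W6 to W14). Each of the 6 groups had 3 separate mice, so that the 18 libraries are 18 animals and each animal was seen at 1 age. No wild-type mouse older than 6 weeks is among these samples, so that age and colitis cannot be told apart in the later groups. The wild-type mice all came from cage G, which held no knockout, so that cage and genotype cannot be told apart either.

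Cytotoxic T cells and natural killer (NK) cells kill by releasing granules at the contact with a target cell. Perforin, encoded by Prf1, opens the target's membrane to granzymes, the serine proteases that then cut proteins inside it, while Fas ligand starts death from the cell surface. In the gut these genes are expressed by intraepithelial and lamina propria lymphocytes and by innate lymphoid cells. In a whole piece of colon, more cells of such a type and more RNA per cell cannot be told apart.

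The sequences before 4 of the genes are shown first, since 3 of them (Gzma, Gzmb and Klrk1) hold the same RUNX letters and Prf1 holds 2 copies of the ETS letters, and since these genes are the ones called in every fit that left out 1 library at week 10. Each is the 250 bases before the RefSeq start (GRCm38.p6), written 5′ to 3′ on the gene's strand, with motif matches in capitals. The bases just after the start matched a GENCODE transcript of the gene for Gzma and Klrk1. For Gzmb and Prf1 they matched none on either strand, so their exact start rests on RefSeq alone, as do the positions of their matches. GENCODE places both genes on the same strands as RefSeq.
Gzma (chr13:113100982-113101231, minus strand): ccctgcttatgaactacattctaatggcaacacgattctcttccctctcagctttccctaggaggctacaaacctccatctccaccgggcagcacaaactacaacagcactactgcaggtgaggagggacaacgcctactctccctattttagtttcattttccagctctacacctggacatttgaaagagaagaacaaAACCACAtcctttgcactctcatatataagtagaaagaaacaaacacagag
Gzmb (chr14:56262335-56262584, minus strand): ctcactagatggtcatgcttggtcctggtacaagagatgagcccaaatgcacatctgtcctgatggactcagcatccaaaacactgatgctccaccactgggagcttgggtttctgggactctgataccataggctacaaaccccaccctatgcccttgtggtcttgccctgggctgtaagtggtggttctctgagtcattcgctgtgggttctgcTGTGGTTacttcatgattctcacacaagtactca
Klrk1 (chr6:129623865-129624114, minus strand): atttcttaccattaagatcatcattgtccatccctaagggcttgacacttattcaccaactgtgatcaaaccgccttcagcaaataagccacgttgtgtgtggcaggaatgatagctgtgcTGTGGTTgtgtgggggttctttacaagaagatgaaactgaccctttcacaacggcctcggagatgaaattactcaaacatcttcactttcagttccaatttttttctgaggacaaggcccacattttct
Prf1 (chr10:61297586-61297835, plus strand): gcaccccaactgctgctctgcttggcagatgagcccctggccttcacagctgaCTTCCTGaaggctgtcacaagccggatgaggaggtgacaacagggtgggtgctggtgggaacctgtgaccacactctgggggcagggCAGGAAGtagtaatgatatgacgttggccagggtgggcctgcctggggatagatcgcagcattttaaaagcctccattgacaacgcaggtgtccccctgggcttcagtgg
Of the 9 genes, 8 had a promoter in the RefSeq table, which runs from 250 bases before to 50 bases after the start. On either strand, the RUNX letters TGTGGTT lay in 3 of these 8 promoters and in 5.27% of all 32851 promoters of 300 bases. The match began at base -51 in Gzma (on the opposite strand, where it reads AACCACA in the sequence above), at -34 in Gzmb and at -129 in Klrk1, counted from the start. The ETS letters CAGGAAG lay in 3 of the 8 (Prf1, Nkg7 and Fasl) and in 13.3% of all promoters, and the Prf1 matches began at -197, on the opposite strand, and at -110. The T-box letters GGTGTGA lay in Gzmk and Nkg7 and in 3.98% of all promoters, and the STAT letters TTCNNNGAA in Gzmb and Nkg7 and in 8.30%. The searched letters overlapped in none of the 8 promoters, and none of the 4 motifs was found in that of Eomes. A match describes letters only, and binding was not measured.

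Libraries held 26495521 to 35497101 estimated counts, and 16300 genes passed the filter on low counts, all 9 members among them. Counts were scaled by TMM, a factor per library, and are given as CPM, the count relative to the scaled library total. Levels of different genes are compared only in TPM, which also divides by transcript length. The RNA integrity number (RIN) was 6.5 and 5.8 in replicates 2 and 3 of Il10KO W14 and 8.4 to 9.3 in the other 16 libraries. The same 2 libraries had TMM factors of 0.581 and 0.680, against 0.875 to 1.19 in the others. Il10 itself was outside the gene table, and its transcripts held 1, 0 and 3 estimated counts in the wild type and 0 in all 15 Il10KO libraries, too few to check the labels firmly. In the GENCODE annotation of GRCm38, Gzma (chr13:113093825-113100981) and Gzmk (chr13:113171608-113225908) lie close together on the minus strand of chromosome 13. Klrd1 (chr6:129591782-129598775, plus strand) and Klrk1 (chr6:129610323-129623864, minus strand) lie close together in the NK gene cluster of chromosome 6. Gzmb lies at chr14:56258838-56262260 on the minus strand and Prf1 at chr10:61297833-61304680 on the plus strand. Nkg7 is at chr7:43437073-43438249 and Eomes at chr9:118478212-118486132, both on the plus strand, and Fasl is at chr1:161780689-161788495 on the minus strand.

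At 6 weeks the granule genes were low in both genotypes, with 0 to 66 counts per gene and library. No member was called between Il10KO W6 and WT W6 by edgeR's quasi-likelihood test with Benjamini-Hochberg adjustment at 0.05, where 0% of all genes were called. None of the 9 had an unadjusted p under 0.05, against 394 of all genes, and DESeq2, limma and voom called none of the 9 either. Gzma held 3, 9 and 7 counts in the wild type and 8, 5 and 9 in the knockout, which overlap. Prf1 was 0.579 ± 0.111 CPM in the wild type and 0.385 ± 0.102 in the knockout (SD, n = 3), a log2 difference of -0.59 ± 0.46. Standard errors of log2 changes here are the fitted change divided by the square root of the F statistic, with a spread shared by all 6 groups.

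Among the granule effectors, Gzma, which encodes the trypsin-like granzyme A, had the largest fitted change of the members with counts at week 6. The 3 libraries of Il10KO W6 held 0.245, 0.158 and 0.282 CPM. Those of week 8 held 1.01, 36.4 and 27.3, those of week 10 held 55.5, 86.5 and 16.8, those of week 12 held 40.5, 31.8 and 24.5, and those of week 14 held 5.06, 189 and 150. All 12 later libraries lay above all 3 of week 6, and within weeks 8 and 14 replicate 1 stood far below the other two. The log2 change from week 6 was 6.54 ± 1.35 at week 8 (adjusted p = 0.0944, edgeR), 7.83 ± 1.41 at week 10 (0.00411), 7.12 ± 1.38 at week 12 (0.0309) and 8.95 ± 1.46 at week 14 (0.00617). All comparisons with week 6 share its 3 libraries.

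Gzmb encodes granzyme B, which cuts after aspartate and can activate caspases. Its CPM were 0.183, 0.316 and 0.407 at Il10KO W6, then 0.983, 15.9 and 15.8 (week 8), 18.2, 44.3 and 8.46 (week 10), 29.8, 12.1 and 6.53 (week 12), and 1.95, 44.5 and 32.1 (week 14). No later library overlapped with week 6, and the same replicate 1 libraries of weeks 8 and 14 were the lowest of all later ones. Its log2 change was 5.16 ± 1.30 at week 8 (adjusted p = 0.173, edgeR), 6.27 ± 1.35 at week 10 (0.00932), 5.72 ± 1.32 at week 12 (0.0421) and 6.42 ± 1.35 at week 14 (0.00617). Across the 18 libraries Gzma and Gzmb had the closest courses of any 2 members, with a Pearson r of 0.98 in log2 CPM, given as a description.

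Gzmk, the gene of granzyme K, had no counts in any Il10KO library of week 6, and 0, 3 and 0 in the wild type. Counts of 4, 23 and 8 (week 8), 14, 27 and 10 (week 10), 97, 8 and 10 (week 12), and 8, 21 and 25 (week 14) followed. Against a floor of 3 counts over the 3 libraries of week 6, its pooled level was at least 12.2-fold higher in week 8, 18.5-fold in week 10, 39.3-fold in week 12 and 23.7-fold in week 14. Replicate 1 gave 97 of the 115 counts of week 12, and without it that bound was 9.81-fold. At week 8, without replicate 2, the bound was 6.58-fold, and at week 14, without replicate 1, it was 41.8-fold. The gene rose at weeks 10, 12 and 14 (edgeR, adjusted p = 0.0199, 0.0421 and 0.00798) and did not pass at week 8 (0.298). Of the other granzymes, Gzmc, which was outside the gene table, totalled 95 estimated counts over 18 libraries, with no library above 22, and Gzmd, Gzme, Gzmf, Gzmg and Gzmn totalled 0 or 1.

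Prf1, the pore-forming perforin, took another course from the granzymes at week 14. It stood at 0.337, 0.316 and 0.501 CPM in the libraries of Il10KO W6, then at 1.24, 3.31 and 1.33 (week 8), 2.65, 3.21 and 1.56 (week 10), 1.49, 1.49 and 2.20 (week 12), and 0.869, 0.624 and 0.467 (week 14). Weeks 8, 10 and 12 lay wholly above week 6, whereas week 14 overlapped with it. The gene rose by a log2 of 2.67 ± 0.47 at week 10 (edgeR, adjusted p = 0.00369) and of 2.16 ± 0.46 at week 12 (0.0376). The changes at week 8, 2.34 ± 0.46 (0.0779), and week 14, 0.78 ± 0.47 (0.173), did not pass. From week 12 to week 14 the fitted change was -1.38 ± 0.45, with an unadjusted p of 0.00756 that did not pass adjustment (0.242).

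**Figure D1:**
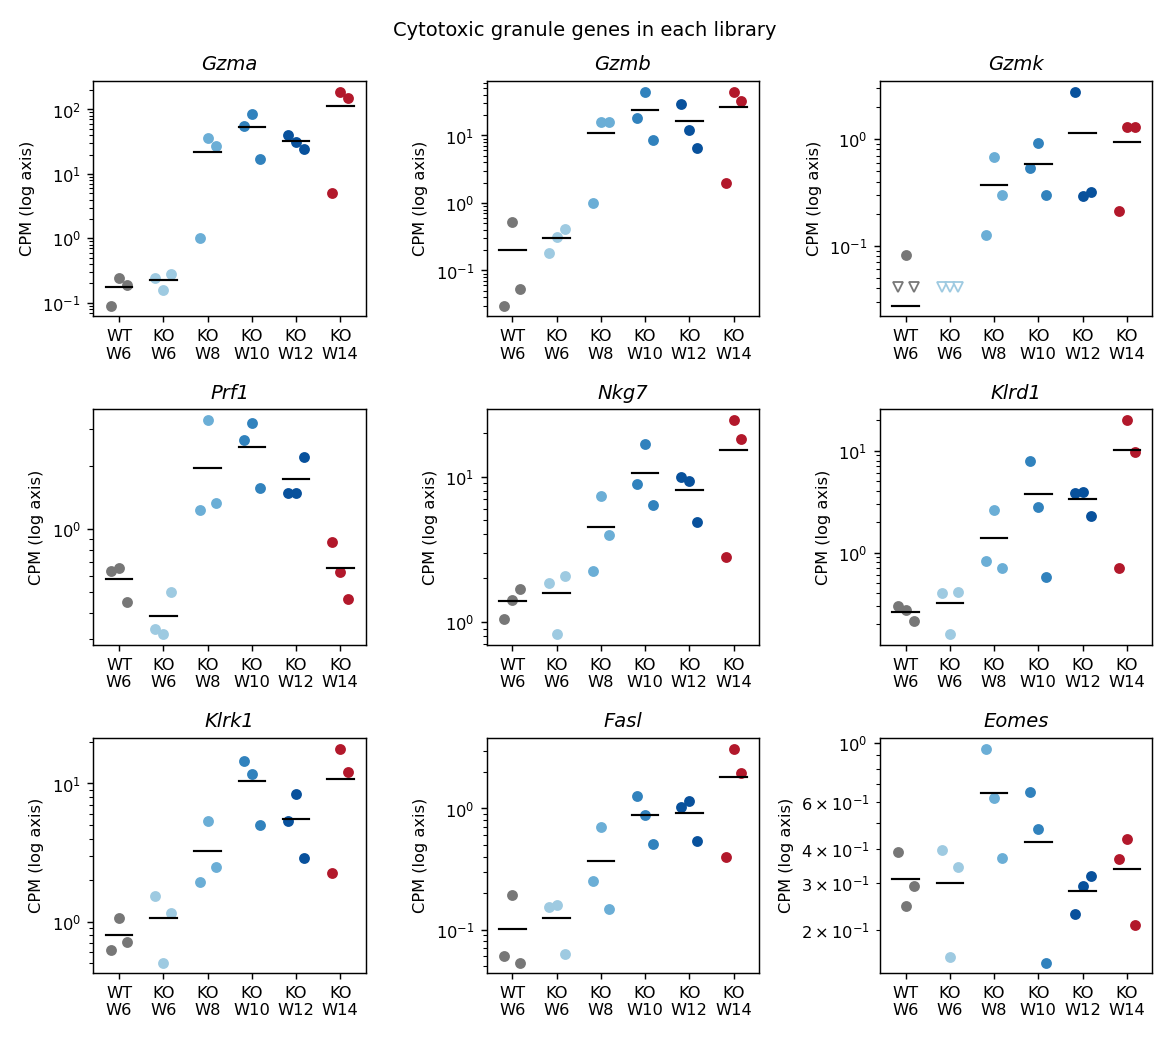
CPM of each of the 9 genes in every library on log axes, by group, with black bars at the group means; open triangles mark libraries with no count, drawn below the lowest value. For 8 genes the libraries of week 10 all lie above those of Il10KO W6, Eomes overlaps with it at every age, and the week 14 libraries of Prf1 (0.467 to 0.869) overlap with those of Il10KO W6 (0.316 to 0.501).

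In the 2 libraries of low RIN, Prf1 and Gzma moved apart. In TPM, Gzma exceeded Prf1 by 1.53 to 2.57 times in the libraries of Il10KO W6, by 2.89, 39.4 and 73.8 times (week 8), by 76.6, 99.4 and 36.9 times (week 10), and by 100.4, 74.0 and 41.7 times (week 12). At week 14 the ratio was 20.5 in replicate 1 and 1112 and 1191 in replicates 2 and 3, the libraries with RIN of 6.5 and 5.8. Those 2 libraries held 10 and 9 counts of Prf1 beside 3023 and 2894 of Gzma. On the TPM scale their Prf1, 0.0940 and 0.0948, lay below every library of Il10KO W6 (0.234, 0.236 and 0.326), whereas in CPM replicate 2 lay above all 3 and replicate 3 among them. With RIN as a covariate the Prf1 change at week 14 was 0.87, and without both libraries it was 1.17, from 1 remaining library; neither passed. The main Prf1 transcript, of 2474 bases, carried 90.0% of its counts, against 878 bases for the one with 93.8% of Gzma counts. Klrk1, with 52.2% of its counts on a transcript of 3197 bases, was in TPM higher in both libraries than in any of week 6. The part of RNA integrity in the week 14 values was not tested beyond these fits.

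**Figure D2:**
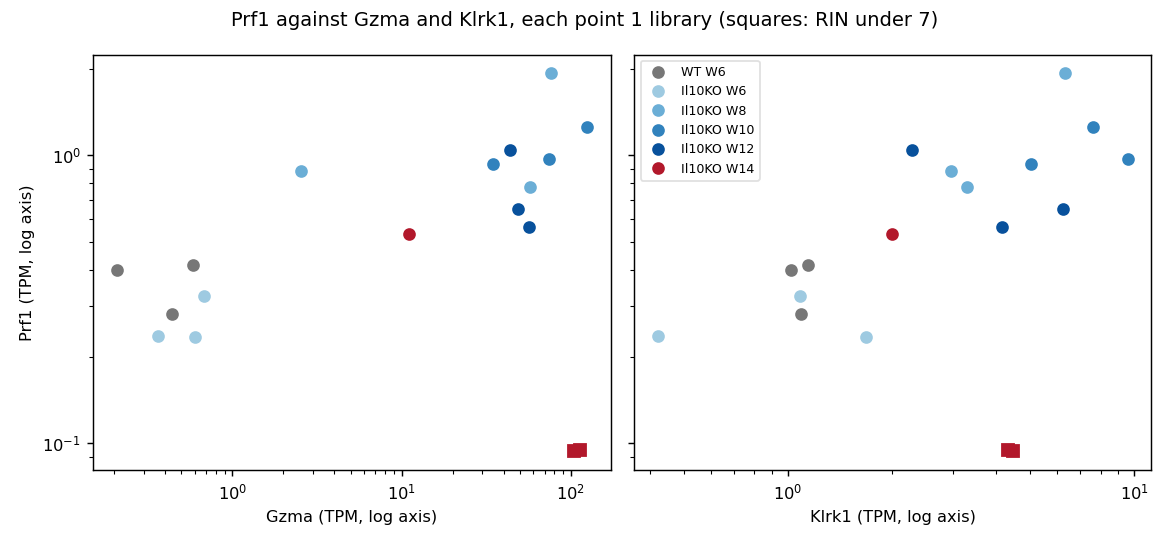
Prf1 in TPM against Gzma (left) and Klrk1 (right), log axes, each point 1 library coloured by group; squares are the 2 libraries with RIN under 7. The squares hold Prf1 at 0.0940 and 0.0948 TPM, the lowest of all 18 libraries, with Gzma at 104 and 113 TPM, while replicate 1 of that age lies at 0.536 TPM of Prf1 and 11 of Gzma.

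Nkg7, which encodes a membrane protein of cytotoxic granules, held 1.87, 0.822 and 2.07 CPM at Il10KO W6. The later values were 2.25, 7.32 and 3.96 (week 8), 8.92, 16.8 and 6.35 (week 10), 9.97, 9.31 and 4.91 (week 12), and 2.82, 24.5 and 18.3 (week 14). Later libraries were all above those of week 6, though replicate 1 of week 8 exceeded the highest of them only narrowly. Nkg7 rose by a log2 of 2.75 ± 0.67 at week 10 (edgeR, adjusted p = 0.0149) and 3.26 ± 0.69 at week 14 (0.00617). Its changes of 1.51 ± 0.65 at week 8 and 2.34 ± 0.66 at week 12 did not pass (0.669 and 0.0739).

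Of the receptors, Klrd1 encodes CD94, which pairs with NKG2 proteins to read the class I molecule Qa-1, and Klrk1 encodes NKG2D, an activating receptor for stress-induced ligands. Klrd1 held 0.398, 0.158 and 0.407 CPM at Il10KO W6, then 0.825, 2.63 and 0.703 (week 8), 7.88, 2.83 and 0.572 (week 10), 3.87, 3.96 and 2.26 (week 12), and 0.711, 19.9 and 9.82 (week 14). In CPM it was higher than at week 6 in all 12 later libraries, though replicate 3 of week 10 and replicate 1 of week 14 stood well below their companions. In TPM, replicate 3 of week 8 (1.45) and replicate 3 of week 10 (1.29) lay below replicate 1 of Il10KO W6 (1.51). The rises of 3.53 ± 1.03 at week 10 and 4.96 ± 1.08 at week 14 passed (edgeR, adjusted p = 0.0279 and 0.00621), and those at weeks 8 (2.10 ± 1.00) and 12 (3.37 ± 1.03) did not (0.706 and 0.0847).

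Klrk1 held 1.53, 0.506 and 1.16 CPM at Il10KO W6, then 1.94, 5.37 and 2.48 (week 8), 14.6, 11.8 and 5.0 (week 10), 5.39, 8.36 and 2.90 (week 12), and 2.27, 17.9 and 12.1 (week 14). None of the later libraries overlapped with week 6. Klrk1 rose by a log2 of 3.29 ± 0.71 at week 10 (edgeR, adjusted p = 0.00952) and 3.32 ± 0.71 at week 14 (0.00617). At weeks 8 and 12 its changes of 1.61 ± 0.68 and 2.38 ± 0.69 did not pass (0.641 and 0.0777). Between weeks 8 and 10 its change was 1.68 ± 0.66 and did not pass (edgeR, adjusted p = 0.202).

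Fasl, the ligand of the death receptor Fas, was among the lowest of the members. It held 5, 5 and 2 counts at Il10KO W6, then 8, 24 and 4 (week 8), 33, 26 and 17 (week 10), 36, 32 and 17 (week 12), and 15, 50 and 38 (week 14). In CPM, replicate 3 of week 8 lay within the range of week 6, and every library from week 10 on lay above it. In TPM, replicate 3 of week 12 (0.341) and replicate 1 of week 14 (0.306) lay below replicate 3 of Il10KO W6 (0.367). The rises at week 10, 2.79 ± 0.81, and week 14, 3.81 ± 0.83, passed (edgeR, adjusted p = 0.0271 and 0.00617), whereas 1.56 ± 0.82 at week 8 and 2.83 ± 0.81 at week 12 did not (0.738 and 0.0739).

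Eomes, a T-box transcription factor of NK cells and of effector and memory CD8 T cells, was the one member not called at any age. Its counts were 13, 9 and 11 in the wild type, 13, 5 and 11 at Il10KO W6, then 30, 21 and 10 (week 8), 17, 14 and 5 (week 10), 8, 8 and 10 (week 12), and 14, 7 and 4 (week 14). In CPM every age overlapped with week 6. The log2 changes at the later ages, in order, were 1.10 ± 0.55, 0.49 ± 0.56, -0.11 ± 0.57 and 0.17 ± 0.58 (edgeR, adjusted p = 0.719, 0.497, 0.899 and 0.818). On log2(TPM + 1) the changes at weeks 10 and 14 were -0.03 and -0.09, so that no direction is given for those ages.

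**Figure D3:**
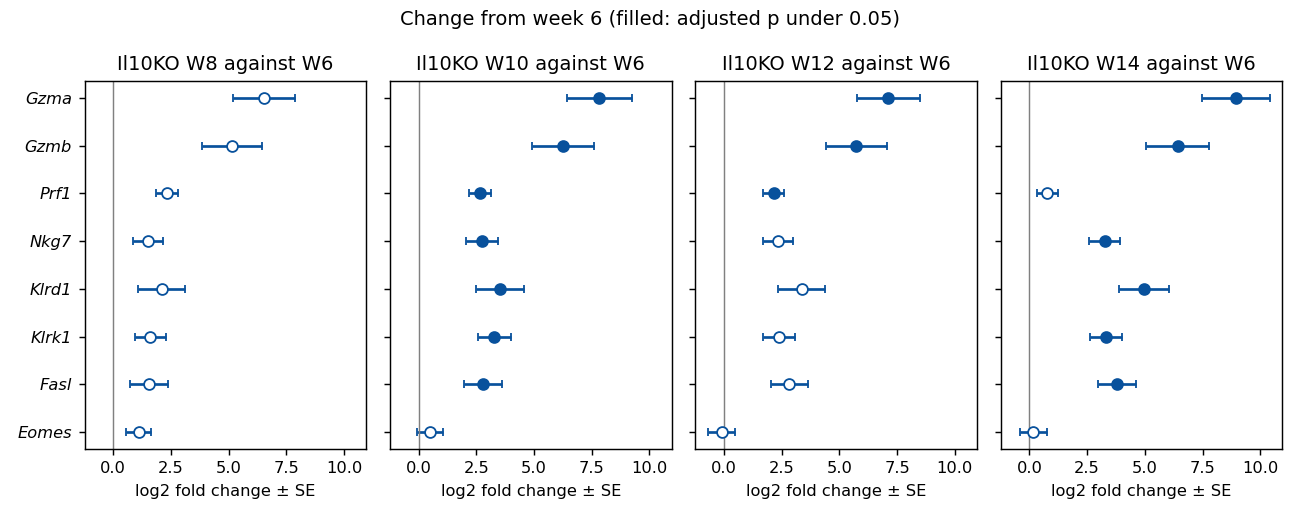
Log2 fold change from Il10KO W6 with its standard error for 8 genes at weeks 8, 10, 12 and 14, filled where the adjusted p was under 0.05; Gzmk is left out because it had no count at week 6. Gzma and Gzmb lie between 5.16 and 8.95 at every age, Prf1 falls from 2.67 at week 10 to 0.78 at week 14, and Eomes stays between -0.11 and 1.10.

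Counted over the set, no member was called at week 8 against week 6 by edgeR, where 0.0675% of all genes were called higher. Of the 9, 6 had an unadjusted p under 0.05 (Gzma, Gzmb, Gzmk, Prf1, Nkg7 and Klrk1), as did 1146 of all 16300 genes. DESeq2 called 4 (Gzma, Gzmb, Gzmk and Prf1) among 231 of 16190 genes, voom with a weight per group 1 (Prf1) among 166, and limma on log2 TPM none. Without replicate 1 of week 8, edgeR called Gzma, Gzmb and Prf1 among 164 of 16320 genes. In CPM, all libraries of week 8 lay above all of week 6 for 7 of the 9 genes, which held for 11.1% of all genes.

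At week 10, 8 of the 9 rose, all but Eomes, where 14.6% of all genes were called higher. In CPM the groups did not overlap for the same 8, against 27.5% of all genes. The median log2 change of the 9 was 3.29, and that of all genes tested was 0.01. Without replicate 1, 2 or 3 of Il10KO W6, 4, 4 and 5 of them were called, among 767, 994 and 1103 of all genes, and Gzma, Gzmb, Prf1 and Klrk1 were among those called in each of the 6 fits that left out 1 library of either age. At week 12, 4 rose (Gzma, Gzmb, Gzmk and Prf1), where 1.36% of all genes were called higher. In CPM, 8 lay wholly above week 6, as held for 32.8% of all genes. Leaving out any 1 of the 6 libraries of weeks 6 and 12 left no member and 0 to 52 of all genes called. Without the 3 libraries of week 14, the 8 members other than Eomes were called at week 12 among 6688 of 16176 genes, and by DESeq2 on all libraries among 2507 of 16190. The calls at that age were 73.4% higher in the fit of counts 28.2% in limma on log2(TPM + 1), which called Gzma and Gzmb, and 70.1% on log2(TPM + 0.1).

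At week 14, 7 rose, all but Prf1 and Eomes, where 24.5% of all genes were called higher. For those 7 the groups did not overlap in CPM, against 19.2% of all genes. These 7 calls held without any 1 library of either age. They were all lost with RIN as a covariate, without the 2 libraries of low RIN, or when only weeks 6 and 14 were fitted, and in each of these 3 fits none of all genes was called. Voom with a weight per group called Gzma and Klrd1 among 1377 of 16300 genes. Replicate 1 of week 14, the library with RIN 9.0, had lower CPM of all 9 genes but Prf1 and Eomes than its 2 companions. Its CPM still lay above the whole of week 6 for all but Eomes. Lipocalin in the labels was 2044 ng/g for that mouse and 3758 and 4289 for the other two, and the summed level of 8 neutrophil markers was 561 CPM against 17050 and 11970. The part of these differences in the week 14 values was not tested. Scale also mattered at that age: of the genes called, 74.1% were higher in the fit of counts and 8.99% in limma on log2(TPM + 1), where the median of all genes moved from -0.06 to -0.74. On that TPM scale 5 members (Gzma, Gzmb, Nkg7, Klrd1 and Klrk1) were still called higher, and the Prf1 change was -0.05. At week 10 the same split was 60.6% and 30.1%, the median of all genes moved from 0.01 to -0.34, and Gzma, Gzmb, Prf1, Nkg7 and Klrk1 were called on the TPM scale.

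Between consecutive ages no member passed. From week 8 to 10, where 0.117% of all genes were called higher, 1 member (Klrk1) had an unadjusted p under 0.05. From week 10 to 12, where 0.448% of all genes were called, no member did, and from week 12 to 14, where 0.00613% were called, 1 member (Prf1) did. DESeq2, limma and voom called no member in these 3 comparisons. Without replicate 1 of week 14, which leaves the 2 libraries of low RIN, edgeR called 5 members between weeks 12 and 14, with Gzma, Nkg7, Klrd1 and Klrk1 higher and Prf1 lower, and it called 7707 of all 16321 genes. The Gzma change, 1.83 ± 1.02 with all libraries, was -1.94 with RIN as a covariate and -2.61 without the libraries of low RIN. In the test over all 5 ages at once 8 members were called, all but Eomes, as were 27.4% of all genes. Without replicate 1, 2 or 3 of Il10KO W6, 3, 2 and 2 were called there, among 1412, 1611 and 1564 of all genes, and without replicate 2 or 3 of week 14, 3 in either case, among 1261 and 1770.

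Some mice of the later ages shared a cage with a week 6 mouse. The fit with cage as a factor, which left 5 residual degrees of freedom, called no member at any age, and of all 16182 genes only 2 at week 10 and none at the other ages. Within the 3 cages that held a week 6 knockout, there were 6 later mice to set beside it. Each of the 8 members other than Eomes was higher in all 6 of them, as were 2112 of all 16300 genes, and Eomes in 3. For Gzma, Gzmb, Gzmk, Nkg7, Klrd1 and Klrk1 this already follows from the lack of overlap in CPM between week 6 and the later ages. In cage B, for example, Gzma was 0.158 CPM in the mouse of week 6, 1.01 in that of week 8, 55.5 in that of week 10 and 31.8 in that of week 12.

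Lipocalin, a protein marker of gut inflammation given in the labels, was used to ask whether members followed it among Il10KO mice of 1 age. No slope on log10 lipocalin passed in edgeR over the 15 libraries, where 0% of all genes were called, and 1 member, Gzmk, had an unadjusted p under 0.05 (0.0230, adjusted p = 0.889), against 117 of all genes. DESeq2, limma and voom called none of the 9. The slopes of the other 8 were between 0.06 ± 0.89 for Prf1 and 1.62 ± 1.72 for Klrd1 per 10-fold of lipocalin.

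Set side by side in TPM, Nkg7 was the highest of the members at Il10KO W6, with 3.80 ± 1.68, ahead of Klrd1 (1.17 ± 0.39), Klrk1 (1.06 ± 0.63) and Gzma (0.548 ± 0.166). From week 8 on Gzma had the highest group mean, with 45.2 ± 38.1, 77.8 ± 45.1, 49.6 ± 6.74 and 76.1 ± 56.5 TPM at weeks 8, 10, 12 and 14. Its share of the summed TPM of the 9 genes was 6.56% to 8.61% in the libraries of week 6 and 52.9% to 73.2% in 10 of the 12 later ones. The other 2, the replicate 1 libraries of weeks 8 and 14, had 14.8% and 44.3%, and in the first of them Gzma (2.56 TPM) lay below Nkg7 (6.08). Gzmb and Nkg7 followed, with 18.1 ± 12.8 and 18 ± 6.90 TPM at week 10, which overlap. Klrk1 (7.41 ± 2.28) and Klrd1 (6.06 ± 5.36) also overlapped with each other, and Gzmk (0.683 ± 0.323) overlapped with both Prf1 (1.05 ± 0.174) and Fasl (0.568 ± 0.098), which did not overlap with each other. Eomes was the lowest (0.113 ± 0.053).

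The courses over the 18 libraries fell into 3 kinds. Between any 2 of the 7 members other than Prf1 and Eomes, the Pearson r of log2 CPM was 0.853 to 0.98. With Prf1 it was 0.439 to 0.647 for those 7, and with Eomes 0.064 to 0.41 for the other 8. These values describe libraries that share their scaling and age groups. They include the 2 week 14 libraries of low RIN, where Prf1 held 10 and 9 counts. In replicate 1 of that age Prf1, at 0.869 CPM, lay above Il10KO W6. No r without those 2 libraries is given, so their part in the lower values of Prf1 was not tested. Among 13722 non-member genes with a mean log2 CPM of at least 0, the courses most like that of Gzma were those of B2m (0.983), Pla2g2a (0.983) and H2-Q7 (0.982), and for Gzmb they were Ly6a, B2m and Ifi47 (each 0.975). For Nkg7 they were H2-M3 (0.969), Ccl8 (0.968) and Cybc1 (0.966), for Klrk1 Cybc1, Ccl8 (each 0.977) and Gsap (0.964), and for Klrd1 Rassf1, Taf1d and Msh5 (each 0.976). For Fasl they were Uck1 (0.976), Cxcr6 (0.958) and Mtfmt (0.955), and for Gzmk Rdh16 (0.932), Pla2g2a (0.930) and Tax1bp3 (0.924). Prf1 was most like Helq (0.905), Optn (0.904) and Il2rb (0.896), the shared beta chain of the receptors for interleukins 2 and 15. Eomes had no gene above 0.658 (Rlf).

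Other genes of the killing machinery were read from lists made up for this tissue. Of all genes, 0.0675%, 14.6%, 1.36% and 24.5% were called higher at weeks 8, 10, 12 and 14. Of 14 tested genes for granule proteins, their processing and release, 4 rose at week 10 and 7 at week 14, where 1 fell, and their median log2 change at week 10 was 1.12. Those with the smallest p at week 10 were Serpinb9, the inhibitor of granzyme B (1.41 ± 0.25), Ctsc, the protease that activates granzymes (1.17 ± 0.24), and Srgn, the granule proteoglycan (3.12 ± 0.84). Of 13 NK and killer cell receptors and adaptors 4 rose at week 10, among them Klrc1 (3.29 ± 0.95), which encodes NKG2A, the partner of CD94, Cd160 (2.18 ± 0.66) and Cd226 (1.74 ± 0.56), 9 rose at week 14 and none was called at weeks 8 and 12. The 4 at week 10 became 0 without any 1 library of Il10KO W6 or replicate 1 of week 10, 1 without replicate 2 and 8 without replicate 3 of week 10. Of 5 ligands of NKG2 receptors 1 rose at week 10, H2-T23 (2.04 ± 0.41), the gene of Qa-1, and 1 rose and 1 fell at week 14. A rise of 1 in 5 is near the shares of all genes. Of 8 genes of death receptor signalling 5 rose at week 10, including Tnfsf10, the gene of TRAIL (4.73 ± 0.76), and Fas (3.25 ± 0.67), and 3 at week 14.

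Of 7 effector cytokines and chemokines 6 rose at weeks 10 and 14, with a median of 6.00 at week 10. Of all genes, 14.6% were called higher at week 10 and 24.5% at week 14. Ifng, the gene of interferon gamma, rose by 7.97 ± 1.55, Ccl3 by 6.34 ± 1.15 and Tnf by 6.17 ± 1.00 at week 10. Ifng was 0.031 ± 0.031 CPM at Il10KO W6, then 0.428 ± 0.389 (week 8), 8.81 ± 5.58 (week 10), 0.973 ± 0.686 (week 12) and 7.46 ± 6.47 (week 14). Of 12 cytokines and receptors upstream of killer cells 7 rose at week 10 and 4 at week 14. Among them Il15ra, which presents interleukin 15, rose by 2.73 ± 0.57 and Il12rb1, a chain of the interleukin 12 receptor, by 2.56 ± 0.54. Il21, with no count at Il10KO W6, was at least 41.3-fold higher at week 10 (edgeR, adjusted p = 0.00594). Of 11 transcriptional regulators of effector cells 2 rose at week 10, Prdm1 (2.87 ± 0.44) and Batf (2.44 ± 0.85), and Zeb2 fell by 1.05 ± 0.36, while 4 rose at week 14. The 2 of 11 at week 10 are near the share of all genes called higher there.

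Of 13 T cell and CD8 markers, none was called at week 8 and 1 at week 12. At week 10, 4 rose, including Cd8a (2.87 ± 0.56), Cd3g (1.79 ± 0.60) and Cd3e (1.18 ± 0.41), and 8 rose at week 14. Of all genes, 0.0675%, 14.6%, 1.36% and 24.5% were called higher at weeks 8, 10, 12 and 14. Cd8b1, the other CD8 gene listed, was 1.558 ± 0.296 CPM at Il10KO W6 and 2.075 ± 0.670 at week 10, and its libraries overlapped. The 4 at week 10 became 1 without any 1 library of Il10KO W6 or without replicate 1 or 2 of week 10, and 7 without replicate 3. Their summed level was 27.3 to 44.7 CPM at Il10KO W6, then 44.4 to 151 (week 8), 49.2 to 146 (week 10), 115 to 156 (week 12) and 45.6 to 299 (week 14). The summed level of the 9 granule genes was 2.59 to 5.23, 9.58 to 73.0, 39.7 to 168, 44.5 to 95.0 and 14.7 to 301 CPM at the same ages. In replicate 3 of week 8 the granule genes stood at 52.5 CPM with the T cell and CD8 markers at 44.4, inside the range of week 6. Of that 52.5 CPM, Gzma held 27.3 and Gzmb 15.8. Fasl (0.148 CPM) and Eomes (0.370) lay within their week 6 range in that library, and the other members lay above theirs. In replicate 1 of week 8 the granule genes stood at 9.58 CPM with the markers at 48.1. No gene of that list was at 0 in any library, and of the 13 killer receptors Klrc2 alone had libraries at 0, in both groups of week 6. The NK receptor Ncr1 was 0.725 ± 0.247 CPM at Il10KO W6 and 2.83 ± 1.78 at week 10. The part of cell numbers in the rise of the granule genes was not tested.

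**Figure D4:**
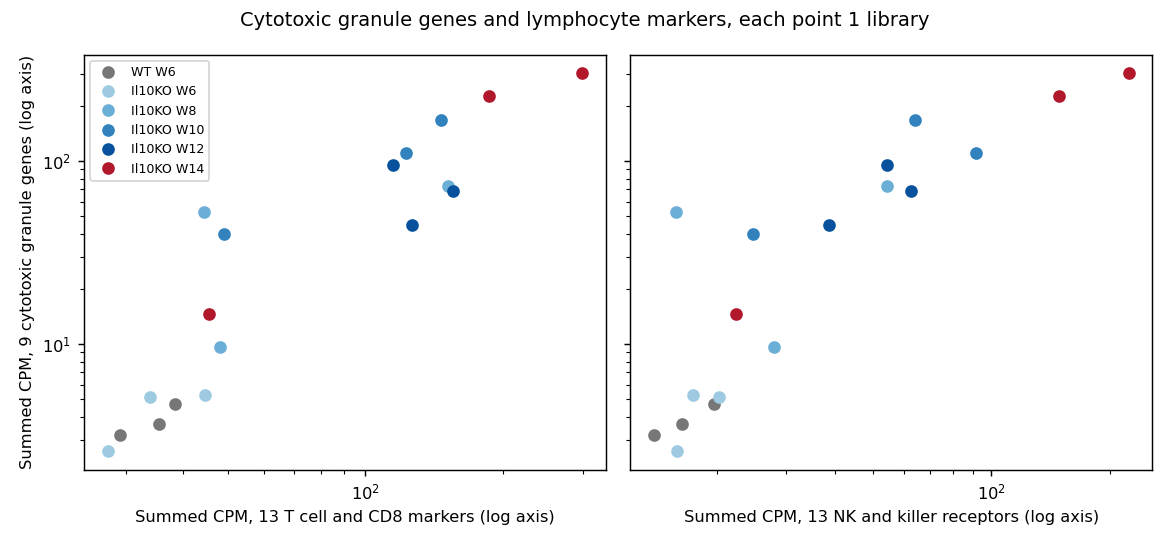
Summed CPM of the 9 cytotoxic granule genes against that of 13 T cell and CD8 markers (left) and of 13 NK and killer cell receptors and adaptors (right), log axes, each point 1 library coloured by group. The 6 libraries of week 6 lie at 2.59 to 5.23 CPM of granule genes, and the replicate 3 library of week 8 stands at 52.5 CPM beside 44.4 CPM of T cell markers. Of that 52.5 CPM, Gzma holds 27.3 and Gzmb 15.8.

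Other cell types were counted the same way, where 14.6% of all genes were called higher at week 10 and 24.5% at week 14. Of 5 CD4 T cell markers 2 rose at week 10 (Icos and Il2ra) and 1 at week 14. At week 10, 3 of the 5 changes were above 0. Mean Cd4 was 11.2 CPM at Il10KO W6, 8.05 at week 10 and 7.41 at week 14, and Foxp3 was 0.468 and 0.434 at weeks 6 and 10. Of 5 gamma delta T cell markers 2 rose at week 10 (Trgc2 and Il17a, which had no count at Il10KO W6) and 4 at week 14. At week 10, 4 of the 5 changes were above 0. Their summed level was 43.95 to 52.74 CPM at Il10KO W6, 25.02 to 29.14 at week 10 and 40.15 to 106.7 at week 14. Of 5 intraepithelial markers none passed in the direction of a rise and 1 (Itga1) fell at week 14, and their median log2 change at week 10 was 0.34, with 3 of 5 above 0. Their summed level was 75.9 to 89.0 CPM at Il10KO W6 and 33.5 to 54.3 at week 10, and Itga1 made up most of it, with a mean of 66.5 and 24.5 CPM. Of 8 neutrophil markers 7 rose at week 10 and 8 at week 14, of 9 macrophage markers 1 and 2, and of 6 plasma cell markers 2 and 3. Of 9 mast cell markers, 2 rose and Kit fell at week 10, and 5 rose at week 14. The macrophage counts, and the 2 mast cell markers at week 10, are near the shares of all genes. The summed level of the macrophage markers was 555 to 721 CPM at Il10KO W6, 1092 to 2719 at week 10 and 844 to 7621 at week 14. Of their 9 changes, 5 and 6 were above 0 at weeks 10 and 14. Of 9 epithelial markers Krt20 rose and Car1 fell at week 10, with 1 in each direction at week 14. No smooth muscle marker of 6 passed at either age, though 0 and 1 of their changes were above 0 at weeks 10 and 14. Of 8 mitochondrial genes none passed at week 10 and 1 rose at week 14. Without the libraries of RIN under 7, 8 of the 13 T cell and CD8 markers and 9 of the 13 NK and killer cell receptors were called at week 10, as were 8384 of all 16319 genes. At week 14 that fit called no gene of any list and none of all genes.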

How the data were processed

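Polyadenylated RNA of distal colon from 18 BALB/c mice was read from the deposited tables. Estimated counts per gene and TPM per gene were made by the authors with kallisto after FastQC, with build mm10, per the submitters' processing notes; the annotation release is not given in the sources used here. Every deposited gene had at least 50 estimated counts in all, and 97.68% of deposited transcripts matched GENCODE M21 (GRCm38), which gave positions. Promoters are RefSeq's, of GRCm38.p6. Depth was 26495521 to 35497101 estimated counts per library, which limits genes with few counts most. No column belonged to another sample.

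Counts were rounded, filtered with filterByExpr (16300 genes kept; 16182 for the 15 Il10KO libraries), scaled by TMM and tested with edgeR 4.0.16 (quasi-likelihood, 12 residual degrees of freedom, Benjamini-Hochberg over all genes, threshold 0.05, two-sided) in R 4.3.3. All 18 libraries shared 1 fit with a level per group; the lipocalin slope used Il10KO libraries with age as a factor. Correlations used log2 CPM with a prior count of 2. Where a group had no count, folds were computed as bounds against 3 counts pooled over its libraries. The script was tested on simulated data.

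All 9 genes were described, from each of 18 other lists up to 3 genes called at week 10 with the smallest p (or 1 where none was called), and for each member the 3 genes most alike; 1 gene that this rule names is not reported here. The members and lists were chosen with earlier results of these data known. Alternatives were DESeq2 1.42.0, RLE factors, no filter, limma 3.58.1 on log2(TPM + 1) and log2(TPM + 0.1), the replicate number, cage or RIN as terms, only the groups compared, no libraries of RIN under 7, and each library left out. Voom with a weight per group and edgeR without week 14 were added after the data were seen. Descriptions used Python 3.11.15, pandas 2.3.3, NumPy 2.4.6 and matplotlib 3.10.9.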

Additional observations from a re-analysis of the deposited data

How the results depend on the processing

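The fold changes tallied here are those of the members other than Gzmk at weeks 8 to 14 against Il10KO W6. A few chosen changes for genotype and between consecutive ages are included, and the rest are not. Of 282 alternative values for the 16 of these that were called, 207 stayed called, 75 no longer passed and none changed sign. Of 424 for the 24 that were not called, 363 stayed so, 45 passed and 16 changed sign. The count of members called at week 8 against week 6, 0 in edgeR, was 4 by DESeq2, 3 with RIN as a covariate, 3 without the libraries of RIN under 7, 3 without week 14, 1 by voom, and 0 to 3 with 1 library left out, the 3 being without week 8 replicate 1. At week 10 the 8 became 5 in limma on log2(TPM + 1) and 0 with cage, and 4 to 8 with 1 library left out. At week 12 the 4 became 8 by DESeq2, by voom, with RIN, without low RIN and without week 14, 7 when only the groups compared were fitted, 2 on log2(TPM + 1), 0 with cage, and 0 with any 1 library left out. At week 14 the 7 became 0 with cage, with RIN, without low RIN (1 library left, assumed to vary like the other groups) and with only the groups compared, and 2 by voom; leaving out 1 library gave 7 each time. Between weeks 8 and 10, 1 member was called with RIN, without low RIN and without week 14. Between weeks 12 and 14 the count was 0 to 5 with 1 library left out, 5 without week 14 replicate 1. Over all 5 ages the 8 became 5 on log2(TPM + 1), 0 with cage, and 2 to 8 with 1 library left out. For genotype, weeks 10 to 12 and the lipocalin slope the count was 0 throughout. Why counts moved was not tested. The cage fit used only the 15 Il10KO libraries and had 5 residual degrees of freedom.

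Among the tallied changes of members and the named genes of the lists at week 10, signs changed as follows. On log2(TPM + 1) and log2(TPM + 0.1), Eomes read -0.0312 and -0.15 (week 10) and -0.0856 and -0.483 (week 14), Prf1 read -0.0456 and -0.331 (week 14), and mt-Co2 was -0.251 on both at week 10. With cage, Eomes was -0.0163 at week 14 and Gzma -0.217 between weeks 12 and 14, where Gzma was -1.94 with RIN and -2.61 without low RIN. With 1 library left out, Eomes ranged from -0.408 to 0.147 at week 12 and from -0.136 to 0.419 at week 14, and Gzmk between weeks 10 and 12 from -0.932, without week 12 replicate 1, to 1.44. On the TPM scale with 1 added, calls between weeks 8 and 10 were 80.0% higher against 59.4%, and between weeks 10 and 12 12.7% against 46.6%.

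The replicate numbers did not pair the mice: same-numbered deviations from the group means correlated at -0.30 to 0.307. With the replicate block, 8, 3 and 7 members were called at weeks 10, 12 and 14, 7 over all 5 ages, and 0 elsewhere.

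Over all genes, calls ranged from 0 to 354 for genotype (0 in edgeR, 354 by voom), 0 to 231 at week 8 (11), 2 to 8384 at week 10 (3917), 0 to 10096 at week 12 (301), 0 to 11335 at week 14 (5388), 0 to 3518 from week 8 to 10 (32), 0 to 1097 from week 10 to 12 (73), 0 to 7707 from week 12 to 14 (1), 0 to 11683 over all ages (4471) and 0 to 2 for the slope (0). Calls of higher genes in the lists ranged at week 10 from 0 to 7 (granule machinery), 0 to 9 (killer receptors), 0 to 8 (CD8 T cells) and 0 to 6 (effector cytokines). Killer receptors had none without any 1 library of Il10KO W6 or replicate 1 of week 10.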
